A study of Homo sapiens with 4 samples.

Results

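The ATP-binding cassette (ABC) genes were taken by symbol: every gene of the ABCA to ABCG subfamilies, without pseudogenes, and TAP1, TAP2 and CFTR, whose symbols do not carry the family name. RefSeq lists 48 such genes, and 45 of them were measured among the 18417 genes of these arrays. The other genes that fit the rule are not analysed here. Where several transcript clusters named a gene, the cluster with the highest mean signal over the 4 arrays was kept.

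RNA of MDA-MB-468, an established human breast cancer line that carries an endogenous mutant p53, was hybridised to whole-transcript arrays, the Affymetrix Human Gene 1.0 ST type. There were 2 arrays of cells given a non-targeting lentiviral shRNA (NS) and 2 of cells given a lentiviral shRNA against the mutant p53 (p53si-1). Both groups had therefore received a lentivirus, and p53si-1 is 1 shRNA sequence, so effects of that sequence apart from the loss of p53 cannot be told apart from it. The question was which transporter transcripts are found in these cells and whether their levels differ once mutant p53 is depleted. The study describes the duplicates as independent experiments in 1 cell line, and its text gives differing times after transduction. The p53 transcript is not analysed here, so the depletion was not checked on these arrays.

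ABC proteins bind ATP in paired nucleotide-binding domains, and most use it to move a substrate across a membrane. Members of the B, C and G subfamilies pump drugs and their conjugates out of cells, and ABCB1, ABCC1 and ABCG2 are the pumps best known from drug-resistant tumours. Other members move sterols and phospholipids, feed peptides to MHC class I molecules, carry porphyrins, peptides or fatty acids into organelles, or gate ion channels. The ABCE and ABCF proteins have no membrane domain and act on ribosomes.

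TAP1 and TAP2, whose genes lie in the MHC class II region, both gave lower signal with p53si-1, so the 250 bases before their annotated starts are printed here. The sequences are from RefSeq (GRCh38.p14), both read from the minus strand, 5′ to 3′, at chr6:32853705-32853954 for TAP1 and chr6:32838740-32838989 for TAP2. Capitals mark matches on either strand to GAAANNGAAA, the core bound by interferon regulatory factors, and to the kappa B consensus bound by NF-kappa B.
TAP1: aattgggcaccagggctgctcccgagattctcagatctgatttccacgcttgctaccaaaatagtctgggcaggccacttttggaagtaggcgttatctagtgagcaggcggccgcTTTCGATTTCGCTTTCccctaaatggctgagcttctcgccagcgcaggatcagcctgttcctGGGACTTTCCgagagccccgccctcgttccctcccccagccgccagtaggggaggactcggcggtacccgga
TAP2: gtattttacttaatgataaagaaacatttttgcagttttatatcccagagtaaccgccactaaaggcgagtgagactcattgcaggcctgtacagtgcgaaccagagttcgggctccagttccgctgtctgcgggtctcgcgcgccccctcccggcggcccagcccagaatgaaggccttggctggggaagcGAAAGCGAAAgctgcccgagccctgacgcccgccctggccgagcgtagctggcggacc
The first capitals of TAP1 hold 2 overlapping matches to GAAANNGAAA read on the opposite strand, and the next are a kappa B match. A second kappa B match of TAP1 lies in the 50 bases after the start, which are not printed. TAP2 holds 1 match to GAAANNGAAA and no kappa B match. Windows of 250 bases before and 50 after a start were searched. GAAANNGAAA occurs in 3.57% of the 35116 windows of the RefSeq table, and the kappa B consensus in 11.3%. The members had 55 such windows over 37 genes, of which 4 windows held GAAANNGAAA and 5 the kappa B consensus. The TAP1 window shares 13 bases with that of PSMB9, a gene read in the opposite direction from the neighbouring start.

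Of the 37 members with such a window, 5 held the kappa B consensus: TAP1, ABCA2, ABCB6, ABCB9 and ABCF1. For GAAANNGAAA, the other members were ABCC2 and ABCA9. Stretches of 30 bases around their matches, at chr10:99782490-99782519 on the plus strand and chr17:69061080-69061109 on the minus strand, are given to set beside the TAP genes, with the match in capitals.
ABCC2: atgtccttagGAAAATGAAAgactgtgcac
ABCA9: aggaaacaaaGAAATGGAAAacagcaaaga
These are matches of letters, and binding at them was not measured.

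The arrays had nearly equal distributions, with medians of 5.66 to 5.69 on the log2 scale, as RMA, the method that summarised them, sets them alike. The epithelial genes KRT8, KRT18 and EPCAM had mean NS signals of 12.42, 11.97 and 12.03, and CDH1, KRT5 and EGFR lay between 9.53 and 10.24. ESR1 and PGR, hormone receptors this line is known to lack, gave 4.49 and 3.97, while ERBB2, a receptor listed with them as absent, gave 7.63. The leukocyte gene PTPRC gave 3.09. Of the markers of other cell types, CD14 at 9.82 and KDR at 8.54 were bright, and COL1A1 at 7.28 also lay above the median of all genes. In limma, KDR had a higher signal with p53si-1 (difference 0.50, adjusted p = 0.275) and KRT5 a lower one (difference -0.41, adjusted p = 0.216). Over all genes the 2 NS arrays were more than 1.5-fold apart at 105 genes and the 2 p53si-1 arrays at 133. Bulk arrays cannot tell fewer cells with a transcript from less transcript per cell.

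In NS cells the ABC genes spanned nearly the whole range of brightness. Their median NS signal was 5.05, against 6.60 over all genes, on the log2 scale. Ranked by mean NS signal among all 18417 genes, 19 members lay in the lowest 25%, 19 in the middle 50% and 7 in the highest 25%, 4 of these in the highest 10%. Probe sets bind with different strength, so the ranks describe brightness and do not order the genes by amount of RNA.

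The drug efflux genes fell into a dim and a brighter set, with ABCC genes in both. ABCB1, ABCG2, ABCB5, ABCC2, ABCC11 and ABCC12 were dim, with mean NS signals of 3.03 for ABCB5 to 4.64 for ABCC2. ABCC1, ABCC3, ABCC4, ABCC5 and ABCC10, which export glutathione, glucuronide or nucleotide conjugates, had mean NS signals from 6.60 for ABCC5 to 7.94 for ABCC3. The dim and the brighter sets did not meet on any array, but they were split by this same signal. ABCB1, the P-glycoprotein pump, gave 3.96 and 3.80 with NS and 3.88 and 3.96 with p53si-1. ABCG2, the breast cancer resistance protein, gave 3.42 and 3.40 with NS and 3.32 and 3.45 with p53si-1. For both genes the groups overlapped, with differences of 0.04 (95% interval -0.19 to 0.27) and -0.02 (-0.24 to 0.19).

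All 18 lipid and sterol transporters were measured, and their mean NS signals ran from 3.18 for ABCA6 to 6.54 for ABCA2. ABCA1, which loads cholesterol onto apolipoprotein A-I, was among the dim genes, at 3.77 and 3.77 with NS and 3.82 and 3.77 with p53si-1. Of the channels and their regulators, CFTR, the chloride channel, and ABCC9 and ABCC8, the sulphonylurea receptors of potassium channels, had mean NS signals of 3.21, 3.53 and 5.03.

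The brightest members, down to TAP2, act in peroxisomes, on ribosomes or in peptide loading. ABCB6, a mitochondrial member, came next at 8.36. ABCF3, the remaining ribosome member, gave 7.90, below ABCB10 of mitochondria at 8.01 and the efflux gene ABCC3 at 7.94. ABCD3, which imports branched-chain and dicarboxylic acids into peroxisomes, gave 11.15 and 11.08 with NS and 11.16 and 11.12 with p53si-1. ABCF1, which takes part in translation initiation, had a mean NS signal of 10.23, TAP1 9.80, ABCE1, which splits ribosomes into subunits after termination, 9.77, ABCF2 9.07 and TAP2 8.78. ABCD2, a close relative of ABCD3 that imports very-long-chain acids, was dim at 3.29.

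Dim members had fewer CG dinucleotides in the start window than bright members, as dim genes had over all genes with a window. Where a gene had several start windows, the highest count was used, so a gene with more windows could reach a higher count. Of the members in the lowest 25% of signal, 16 had a window, with a median of 9.5 CG dinucleotides in 300 bases, and 8 of them held fewer than 10. In the upper part of the signal ranking, above the median of all genes, 14 members had a window, with a median of 28.5, a range of 15 to 47 and none below 10. The medians over all genes with a window, those of chr8 left out, were 6 and 29. Spearman's rho between CG count and NS signal was 0.57 over the 37 members and 0.44 over these 14239 genes, and Pearson's r was 0.53 and 0.44. The points are genes of 1 set of arrays and not replicates, and CG content also bears on how probes hybridise, whose part in the relation was not tested. ABCG2, ABCA5, ABCC11 and ABCA1 were dim with 35, 45, 28 and 23 CG dinucleotides and signals of 3.41, 4.18, 4.55 and 3.77.

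With p53si-1 the family as a whole lay near the background of the arrays. None of the 45 members passed an adjusted p of 0.05 in limma, where 0.109% of all genes did, and the lowest adjusted p of a member was 0.228, for TAP2. At an unadjusted p under 0.05 there were 4 members, where 12.3% of all genes passed. ABCC4, TAP1 and TAP2 were the 3 with lower signal (6.8% of all genes), and ABCF3 was the 1 with higher signal (5.45%). No member differed by over 1.5-fold, the criterion the study used on these arrays, which 0.923% of all genes met. Differences ran from -0.33 to 0.25 on the log2 scale, with a median of -0.04 (-0.01 over all genes).

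The intervals bound how large an undetected difference in signal could be. For the 19 members of the lowest 25% they do not bound a difference in transcript, as RMA draws dim signals toward background. For 44 of 45 members the 95% interval of the difference lay within 1.5-fold either way, as it did for 91.9% of all genes, and the exception was ABCC4. The median absolute difference of the members was 0.060, against 0.093 over all genes, and the median gap between replicate arrays of a member was 0.110 with NS and 0.101 with p53si-1. For 13 members both p53si-1 arrays lay below both NS arrays, where 22.6% of all genes did so, and for 3 members both lay above (19.9%). The 19 dim members of the lowest 25% gave 3 of the 13 and 2 of the 3, and the other 26 gave 10 and 1. The shares of all genes within these ranges of brightness are not given here, so this split has no matched background. With 2 arrays against 2, an exact permutation test cannot give a two-sided p below 0.333.

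**Figure D1:**
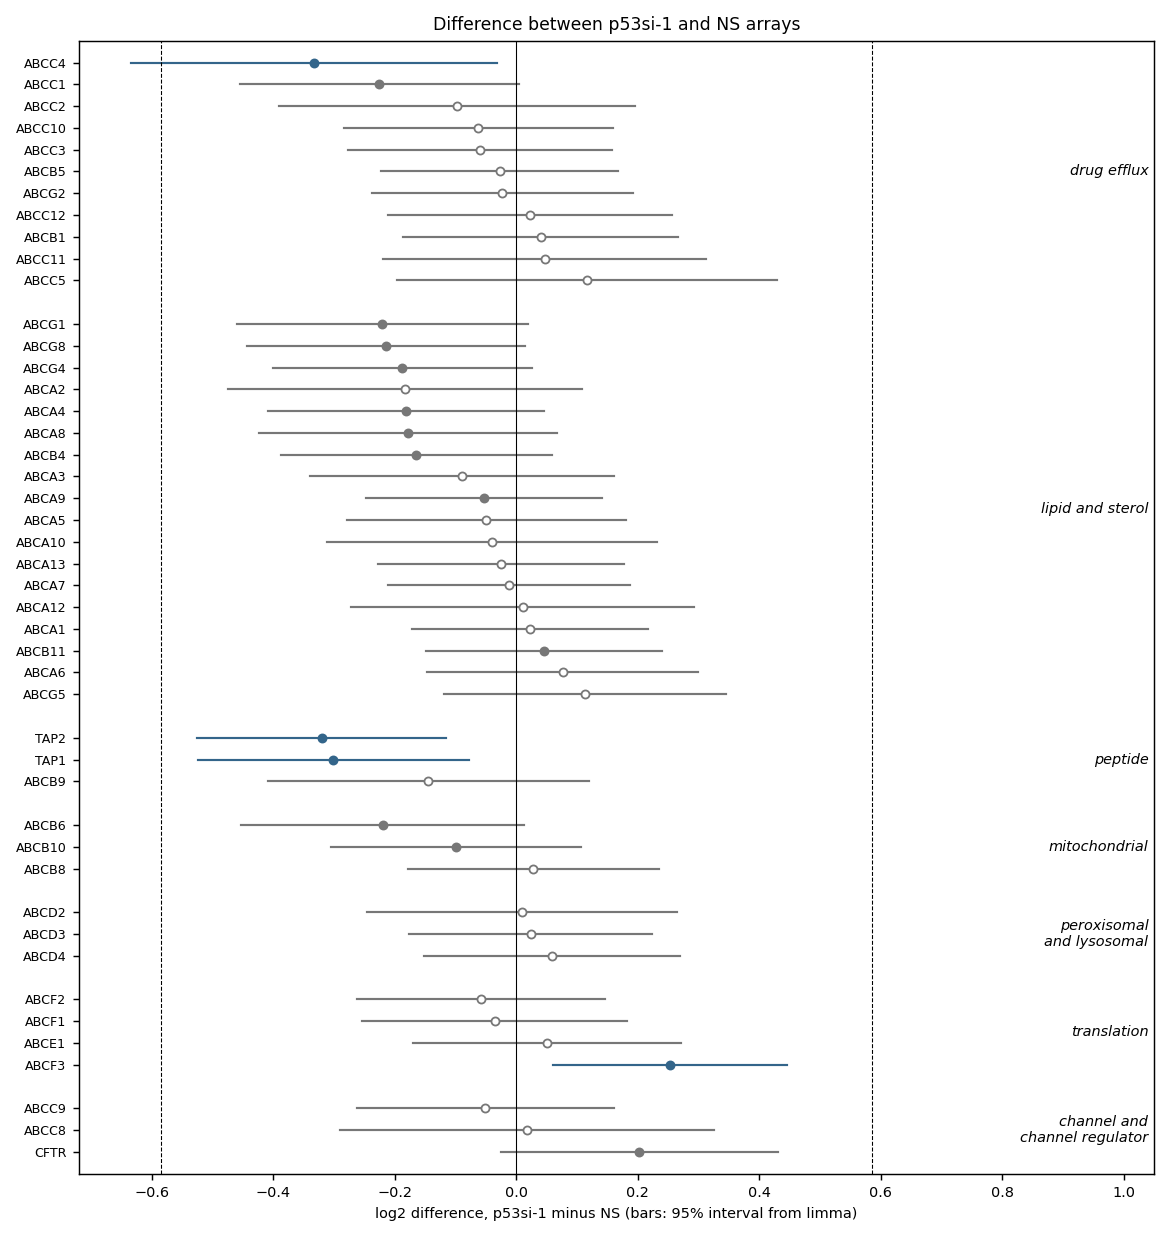
The log2 difference of p53si-1 from NS for 45 members by role, with the 95% interval from limma, filled points where the 2 groups of arrays did not overlap, blue where the unadjusted p was under 0.05, and dashed lines at 1.5-fold. The points lie between -0.33 and 0.25, and TAP1, TAP2, ABCC4 and ABCF3 are the 4 whose intervals leave out 0.

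The peptide transporters TAP1 and TAP2, which together carry cytosolic peptides into the endoplasmic reticulum for MHC class I, had lower signal with p53si-1. TAP1 gave 9.88 and 9.72 with NS and 9.53 and 9.47 with p53si-1. TAP2 gave 8.75 and 8.80 with NS and 8.50 and 8.41 with p53si-1. For each gene both p53si-1 arrays were below both NS arrays. The differences were -0.30 (SE 0.092, adjusted p = 0.281) for TAP1 and -0.32 (SE 0.085, adjusted p = 0.228) for TAP2. Neither passed the adjusted threshold. Over the reported fit and the 11 other settings the difference ran from -0.38 to -0.22 for TAP1 and from -0.37 to -0.27 for TAP2.

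Both genes had 3 transcript clusters. Those of TAP1 held identical values, and those of TAP2 gave -0.32, -0.32 and -0.33, with 2 of them nearly identical in signal. The clusters of a gene are therefore not read as separate measurements. ABCB9, a lysosomal peptide transporter related to the TAP proteins, gave 6.48 and 6.75 with NS and 6.45 and 6.49 with p53si-1, and its groups overlapped (difference -0.14). The 2 other members with GAAANNGAAA in the start window had differences of -0.10 for ABCC2 and -0.05 for ABCA9. Those with the kappa B consensus beside TAP1 were ABCA2 at -0.18, ABCB6 at -0.22, ABCB9 at -0.14 and ABCF1 at -0.04.

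Of 21 genes listed for antigen presentation and its control, beside the TAP genes, 14 were measured. None passed the adjusted threshold in limma, 3 had lower and 0 higher signal at an unadjusted p under 0.05 (6.8% and 5.45% of all genes), and the median difference was -0.10. Without overlap, 7 lay lower (22.6% of all genes) and 2 higher (19.9%), the latter CANX and ERAP1 at 0.09 and 0.03. In the lists described below, 9 of 19 haem and iron-sulphur genes lay lower and 2 higher without overlap. The counts were 10 and 6 of 30 glutathione and xenobiotic genes, and 7 and 2 of 23 uptake carriers. They were 2 and 3 of 15 for sterol efflux, 2 and 4 of 19 for peroxisomes and cobalamin, and 5 and 6 of 18 for ribosome rescue. PSMB9, an immunoproteasome subunit whose gene starts beside that of TAP1, gave 10.18 and 10.04 with NS and 9.85 and 9.72 with p53si-1, a difference of -0.33 (adjusted p = 0.265). PSMB8, another immunoproteasome subunit, gave 10.51 and 10.35 with NS and 10.48 and 10.43 with p53si-1, and these overlapped. TAPBPL, a peptide editor of MHC class I, gave 7.20 and 6.995 with NS and 6.82 and 6.57 with p53si-1 (difference -0.40, adjusted p = 0.274).

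IRF1, an interferon-induced transcription factor, gave 8.12 and 8.005 with NS and 7.66 and 7.50 with p53si-1 (difference -0.48, adjusted p = 0.142). TAPBP, the tapasin bridge between TAP and MHC class I, gave 10.96 and 10.91 with NS and 10.87 and 10.72 with p53si-1 (difference -0.14). B2M, the class I light chain, overlapped between the groups at 11.26 and 11.12 with NS and 11.25 and 11.24 with p53si-1. The lower signals therefore lay in some members of the list, while the groups overlapped at others. The list was drawn up with earlier results of these arrays known.

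**Figure D2:**
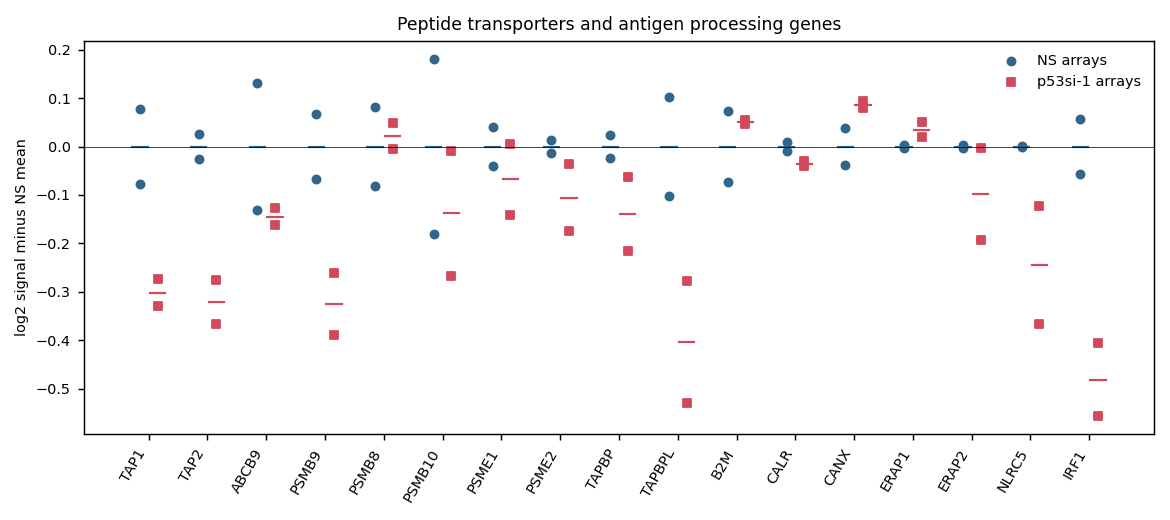
Log2 signal of 3 peptide transporter genes and 14 antigen processing genes on each array, relative to that gene's mean under NS (circles NS, squares p53si-1, bars the group means). TAP1, TAP2, PSMB9, TAPBPL and IRF1 had both p53si-1 arrays below both NS arrays, by -0.30 to -0.48 in the mean, while B2M and PSMB8 overlapped.

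Among the drug efflux genes the lower signals were those of ABCC4 and ABCC1. ABCC4, an exporter of cyclic nucleotides, prostaglandins and nucleoside drugs, gave 7.43 and 7.67 with NS and 7.10 and 7.33 with p53si-1. Its groups did not overlap, but its replicates were 0.24 and 0.23 apart, and the difference of -0.33 (SE 0.124, adjusted p = 0.363) ran from -0.45 to -0.21 with 1 array left out, the smallest without NS replicate 2. ABCC1, the multidrug resistance protein that exports glutathione conjugates, gave 6.98 and 7.13 with NS and 6.78 and 6.88 with p53si-1, without overlap (difference -0.23, SE 0.095, adjusted p = 0.411). At the other 9 drug efflux genes the groups overlapped, with differences from -0.10 for ABCC2 to 0.12 for ABCC5.

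The glutathione and xenobiotic response genes include enzymes that make conjugates these pumps export, beside regulators and genes of other steps. Of this list, 30 of 32 were measured. With p53si-1, 5 were lower and 1 was higher at an unadjusted p under 0.05 (6.8% and 5.45% of all genes), none passed the adjusted threshold in limma, and the median difference was -0.02. SLC7A11, the cystine importer that feeds glutathione synthesis, gave 8.08 and 8.37 with NS and 7.35 and 7.88 with p53si-1 (difference -0.61, adjusted p = 0.289, and -0.87 to -0.34 with 1 array left out). GSTM3, a glutathione transferase, gave 8.69 and 8.59 with NS and 8.16 and 8.13 with p53si-1 (difference -0.49, adjusted p = 0.101). CYP1A1, a target of the aryl hydrocarbon receptor, gave 10.62 and 9.77 with NS and 11.04 and 10.75 with p53si-1, a difference of 0.70 (adjusted p = 0.375) with NS arrays 0.85 apart. The CYP1A1 difference was 0.27 without NS replicate 2 and 1.13 without NS replicate 1.

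NFE2L2, the NRF2 factor that induces several ABCC genes, overlapped between the groups (difference -0.01). Of the carriers that take drugs and their natural substrates into cells, 23 of 25 were measured, 3 were lower and 0 higher at an unadjusted p under 0.05 (6.8% and 5.45% of all genes), none passed the adjusted threshold in limma, and the median difference was -0.05. These 3 were SLC22A5 and SLC22A4, carnitine and cation carriers, at -0.44 and -0.38, and SLC28A3, a nucleoside carrier, at -0.35, with adjusted p of 0.198, 0.200 and 0.180.

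Among the lipid and sterol transporters, the p53si-1 mean was the lower at 13 of 18 (at 52.6% of all genes), and none reached an unadjusted p under 0.05. ABCG1, which exports cholesterol to high-density lipoprotein, gave 4.92 and 4.95 with NS and 4.61 and 4.82 with p53si-1 (difference -0.22, SE 0.098, adjusted p = 0.436). ABCG8, which forms the plant sterol exporter with ABCG5, gave 4.93 and 4.75 with NS and 4.62 and 4.62 with p53si-1 (difference -0.21, adjusted p = 0.427). Its partner ABCG5 gave 4.32 and 4.18 with NS and 4.43 and 4.30 with p53si-1, so the groups overlapped and the mean was higher, by 0.11. ABCG4, ABCA4, ABCA8, ABCB4 and ABCA9 also lay lower without overlap, which made 7 of 18 (22.6% of all genes), by differences of -0.19, -0.18, -0.18, -0.16 and -0.05, and ABCB11, the bile salt export pump, lay higher by 0.05.

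The listed genes of sterol efflux and of LXR, the oxysterol receptor that induces ABCA1 and ABCG1, did not pass the adjusted threshold at any of the 15 measured of 18 in limma. At an unadjusted p under 0.05, 1 was higher and 0 were lower (5.45% and 6.8% of all genes), and the median difference was 0.03. SOAT1, which esterifies cholesterol, was the 1 gene, at 9.42 and 9.48 with NS and 9.63 and 9.69 with p53si-1 (difference 0.21, adjusted p = 0.388). MYLIP, an LXR target that degrades the LDL receptor, gave 8.15 and 8.11 with NS and 8.45 and 8.27 with p53si-1 (difference 0.23, adjusted p = 0.410). NR1H3, which encodes LXR alpha, had a difference of 0.00, and SCARB1, the receptor for high-density lipoprotein, of -0.19.

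The mitochondrial members are ABCB6, a porphyrin transporter also found on other membranes, ABCB8 and ABCB10, of the inner membrane. ABCB6 gave 8.43 and 8.29 with NS and 8.20 and 8.07 with p53si-1, without overlap (difference -0.22, SE 0.096, adjusted p = 0.426). ABCB10, which works in haem synthesis, gave 7.95 and 8.06 with NS and 7.90 and 7.92 with p53si-1, also without overlap (difference -0.10). ABCB8 overlapped, with a difference of 0.03, and its 3 transcript clusters differed in brightness.

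Of the genes of haem and iron-sulphur cluster synthesis, 19 of 22 were measured, 2 were lower and 1 was higher at an unadjusted p under 0.05 (6.8% and 5.45% of all genes), none passed the adjusted threshold in limma, and the median difference was -0.04. SLC25A39, the mitochondrial glutathione importer, gave 10.63 and 10.56 with NS and 10.22 and 10.09 with p53si-1 (difference -0.44, adjusted p = 0.150). ALAS1, the first enzyme of haem synthesis, differed by -0.25 (adjusted p = 0.310) and CPOX, a later enzyme, by 0.47 (adjusted p = 0.245), so enzymes of the pathway lay on both sides of 0.

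The peroxisomal and lysosomal members had small differences, all with overlap. ABCD3, whose values are above, differed by 0.02 and ABCD2 by 0.01. ABCD4, which releases cobalamin (vitamin B12) from lysosomes, gave 6.93 and 7.003 with NS and 6.97 and 7.07 with p53si-1 (difference 0.06, 95% interval -0.15 to 0.27). LMBRD1, the lysosomal membrane protein that works with ABCD4, gave 9.01 and 8.94 with NS and 8.29 and 8.31 with p53si-1. Its difference of -0.68 (adjusted p = 0.0594) did not pass the adjusted threshold in limma, and both p53si-1 arrays lay below both NS arrays. LMBRD1 passed in some other settings, as with a trended prior (adjusted p = 0.0187), where 149 of all genes passed against 20 in the reported fit.

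LMBRD1 was 1 of 19 measured of 22 genes of peroxisomes and cobalamin handling. Of these, 2 were lower and 2 were higher at an unadjusted p under 0.05 (6.8% and 5.45% of all genes), none passed the adjusted threshold in limma, and the median difference was 0.02. SLC27A2, a very-long-chain acyl-CoA synthetase, gave 7.49 and 7.35 with NS and 7.82 and 7.72 with p53si-1 (difference 0.35, adjusted p = 0.224), and PEX6, a peroxisomal import ATPase, overlapped between the groups (difference -0.24).

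ABCF3 was the member with the largest higher signal. It is a ribosome-associated ABCF protein, and it gave 7.91 and 7.89 with NS and 8.15 and 8.15 with p53si-1. Its replicates were close and its groups did not overlap, and the difference was 0.25 (SE 0.079, adjusted p = 0.295), or 1.19 times the NS level. ABCF2 gave 9.06 and 9.08 with NS and 8.96 and 9.06 with p53si-1, with overlap (difference -0.06). ABCE1 and ABCF1 overlapped, with differences of 0.05 and -0.04, so the 4 ribosome-acting members did not share a direction.

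Of the ribosome rescue and initiation genes listed with them, 18 of 19 were measured, 2 were higher and 0 lower at an unadjusted p under 0.05 (5.45% and 6.8% of all genes), none passed the adjusted threshold in limma, and the median difference was -0.01. NEMF, which marks stalled nascent chains on the large subunit, gave 8.35 and 8.41 with NS and 8.70 and 8.85 with p53si-1 (difference 0.40, adjusted p = 0.185). EIF2S3, a subunit of the initiation factor eIF2, gave 11.91 and 11.90 with NS and 12.20 and 12.13 with p53si-1 (difference 0.26, adjusted p = 0.292). LTN1, the ubiquitin ligase that acts with NEMF, overlapped between the groups (difference -0.21).

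CFTR, the chloride channel, gave 3.27 and 3.14 with NS and 3.47 and 3.35 with p53si-1. All 4 signals were in the dimmest part of the array, and the groups did not overlap (difference 0.20, SE 0.094, adjusted p = 0.456). ABCC9 gave 3.50 and 3.57 with NS and 3.53 and 3.43 with p53si-1, with overlap (difference -0.05), and ABCC8 differed by 0.02 with p53si-1 arrays 0.316 apart. The control genes GAPDH, ACTB and B2M had differences of -0.09, -0.07 and 0.05.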

How the data were processed

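Total RNA (300 ng per array) of MDA-MB-468 cells was hybridised to 4 arrays, 2 per group. The authors deposited log2 values, 1 for each array and transcript cluster. Their processing notes in GEO name RMA, GCOS and Affymetrix Expression Console. The sources used here do not give the RMA settings or the annotation version. RMA makes arrays alike, so a shift of most transcripts would be removed, and it draws dim signals toward the background level.

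Of 33297 clusters, 19460 named 1 symbol, 1754 several and 12083 are unnamed here; several or none were not used. Groups were compared with limma (version 3.58.1, R 4.3.3; lmFit and eBayes) on 18417 genes, with Benjamini-Hochberg adjustment over all of them and no filter. The number of arrays, with 2 residual degrees of freedom, limits the precision. Tested on simulated data of this comparison with 18417 genes, the fit recovered 30% of 50 genes changed 1.5-fold and 96% of 50 changed 2-fold, with 10 unchanged genes called. The same simulation held 50 genes changed 3-fold and 50 changed 4-fold, of which 100% were recovered, and its spread was drawn from the fitted prior. Many large changes loosen the adjusted threshold, and 20 genes passed it on the measured arrays. The recovered shares may therefore be too high for these data.

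The members, roles and partner lists were chosen with earlier results of these data known. Values on every array are given for members with an unadjusted p under 0.05, the 2 with the largest difference in each role, and ABCB1, ABCC1, ABCG2, TAP1, TAP2, CFTR, ABCA1 and ABCG1. Of each partner list, the 3 with the largest difference are named, with PSMB8, PSMB9, TAPBP, MYLIP, NR1H3 and NFE2L2. Others were named after their values were seen. Of 159 partner genes 138 were measured. Alternatives were another choice of cluster, a filter on dim genes, quantile normalization, median centring, a trended prior, a replicate block, other fold criteria and leaving out each array.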

Additional observations from a re-analysis of the deposited data

How the results depend on the processing

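No member passed an adjusted p of 0.05 in limma under any of the 11 other settings fitted. TAP2 kept an unadjusted p under 0.05 in 12 of 12 settings, the reported one included, TAP1 and ABCC4 in 10 and ABCF3 in 8; TAP1 lost it without NS replicate 1 and without p53si-1 replicate 2, ABCC4 without NS replicate 2 and without p53si-1 replicate 1, and ABCF3 without any 1 array, though its difference stayed between 0.25 and 0.28 in all 12. At the less strict fold criterion 1 member passed instead of 0, and the share of all genes passing it is not given here. No source says that replicate numbers mark a shared culture: deviations of same-numbered arrays correlated at 0.24, and with the replicate number as a block 9 members instead of 4 had an unadjusted p under 0.05, with ABCB6, ABCC1, ABCG1, ABCG8 and CFTR added, as the share of all genes went from 12.3% to 17.02%. With 1 array left out, the lone array is taken to vary like the others, so the unadjusted p there rests on that assumption. Members without overlap numbered 8 lower and 1 higher without dim genes (24 members stay), 7 higher with median centring, and 17 to 24 lower and 7 to 11 higher with 1 array left out, where a lone array makes overlap rarer. The shares of all genes without overlap in these settings are not given here. These counts therefore have no matched background and are not read as results about the family. The median difference of the members was -0.0155 with median centring, which moved the median of all genes from -0.01 to 0.02. With 1 array left out, the median difference of the members ran from -0.0770 to -0.0277. Differences near 0 changed sign: with median centring ABCG2 gave 0.0017 and NFE2L2 0.0138; with quantile normalization ABCD3 gave -0.0213 and PSMB8 -0.0030; and with 1 array left out the ranges were -0.0369 to 0.117 for ABCB1, -0.0914 to 0.0454 for ABCG2, -0.0104 to 0.0573 for ABCD3, -0.104 to 0.00079 for ABCC9, -0.0222 to 0.124 for B2M, -0.0868 to 0.0650 for NFE2L2, -0.0707 to 0.0759 for NR1H3 and -0.0587 to 0.104 for PSMB8. LMBRD1 passed the adjusted threshold in limma without dim genes (0.0373), with median centring (0.0486) and with a trended prior (0.0187), and in none of the other settings. In these settings 100, 55 and 149 of all genes passed, against 20 in the reported fit.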
